A study of Mus musculus with 4 samples.

Results

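The growth factor receptors of leukaemic spleen cells were followed through treatment with R848. The set holds 10 genes of the 28074 symbols in the deposited table, chosen by name: Flt3, Kit, Csf1r, Csf2ra, Csf2rb, Csf2rb2, Csf3r, Il3ra, Il6ra and Il6st. They encode the receptors for FLT3 ligand, for the SCF, IL3 and IL6 of the culture medium and for the colony stimulating factors. RNA sequencing was done on 4 samples from 2 mice, numbered 4050 and 4182: cells of each mouse given R848 (10 µg/ml, 3 days; n = 2) and cells of the same mouse given an equal volume of vehicle (control, 3 days; n = 2). All 4 samples share the genotype: floxed Dnmt3a alleles, the Flt3 internal tandem duplication on both alleles in the sample labels, and Mx1-Cre, an inducible recombinase that acts in blood cells and some other tissues. For Dnmt3a the labels give fl/fl in one place and +/- in another, and they give no age for the mice. Leukaemic spleen cells had been frozen, thawed and left for a day in medium with 20% serum, SCF at 60 ng/ml, IL6 at 20 ng/ml and IL3 at 20 ng/ml. The labels name no sort for leukaemic cells. R848, or resiquimod, is a small molecule that activates the toll-like receptor TLR7, which senses RNA in endosomes. The study asked which genes respond to it.

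FLT3, KIT and the CSF1 receptor are receptor tyrosine kinases that pair up when their ligand binds and phosphorylate one another. The receptors for IL3, GM-CSF, G-CSF and IL6 have no kinase of their own and signal through JAK kinases and STAT proteins. In the IL3 and GM-CSF receptors a ligand-specific alpha chain joins a shared beta chain, and in the IL6 receptor IL6RA binds the cytokine and IL6ST, also called gp130, carries the signal. Gp130 is likewise the signalling chain for LIF, oncostatin M and IL11. The internal tandem duplication makes FLT3 active without ligand in acute myeloid leukaemia.

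The promoters of Il6st and Flt3 are shown because these genes had the lowest differences of the 10. They are the 250 bases before the transcription start in RefSeq (GRCm38.p6), Il6st at chr13:112463820-112464069 on the plus strand and Flt3 at chr5:147400490-147400739 on the minus strand, each 5′ to 3′. Capitals mark a match to any of 7 motifs searched on both strands, and the motifs were chosen after the values were seen.
Il6st: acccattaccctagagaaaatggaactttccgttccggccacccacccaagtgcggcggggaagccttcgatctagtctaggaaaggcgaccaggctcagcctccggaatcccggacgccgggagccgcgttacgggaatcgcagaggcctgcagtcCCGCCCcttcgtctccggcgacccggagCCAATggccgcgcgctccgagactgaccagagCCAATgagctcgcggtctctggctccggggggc
Flt3: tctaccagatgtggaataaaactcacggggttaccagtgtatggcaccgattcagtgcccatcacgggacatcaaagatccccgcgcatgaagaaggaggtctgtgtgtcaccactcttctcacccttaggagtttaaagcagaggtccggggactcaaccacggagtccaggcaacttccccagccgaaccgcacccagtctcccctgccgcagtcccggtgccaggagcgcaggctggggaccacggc
The Il6st window held CCAAT at 2 places, 61 to 65 and 29 to 33 bases before the start, and GGGCGG on the other strand at 88 to 93 bases. CCAAT occurs in 34.5% and GGGCGG in 32.9% of 27025 promoter windows of the same length. The Flt3 window held no match. The other motifs were TTCNNNGAA (STAT, in 7.18% of windows), GAAA, 2 free bases and GAAA (IRF, 3.04%), GAGGAAGT (PU.1, 2.44%), TGTGGT (RUNX, 14.2%) and GGGA, 4 free bases and CC (NF-kB, 17.3%). Promoters of 8 receptor genes were in the table. Of these Csf2rb2 held the STAT letters 7 to 15 bases before its start, Csf3r and Il6ra held the NF-kB letters, and Kit, Csf2ra and Il3ra held GGGCGG.

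Most of these receptors were well expressed, and the order of their mean levels differed between the groups. Il6st stood lower with R848, and the means of Csf1r and Csf2rb, and of Csf3r and Csf2ra, stood in the opposite order. Within the mice these changes of order did not repeat. Csf1r and Csf2rb changed order only in mouse 4182, and Csf3r and Csf2ra only in mouse 4050. Levels are given as FPKM, the name the authors use, a value scaled for gene length so that genes can be compared. With R848 the order was Csf1r (96.6 ± 20.0 FPKM, SD, n = 2), Csf2rb (93.0 ± 29.9), Csf3r (51.5 ± 21.0), Csf2ra (39.4 ± 1.61), Il3ra (14.3 ± 1.13), Kit (8.73 ± 2.92), Csf2rb2 (8.69 ± 3.26), Il6st (7.65 ± 0.365), Il6ra (5.76 ± 0.755) and Flt3 (0.213 ± 0.167). In control it was Csf2rb (82.6 ± 18.5), Csf1r (60.4 ± 11.1), Csf2ra (43.6 ± 5.74), Csf3r (41.6 ± 4.65), Il6st (29.7 ± 3.12), Il3ra (13.6 ± 2.42), Kit (13.5 ± 2.71), Csf2rb2 (8.77 ± 2.75), Il6ra (7.002 ± 0.773) and Flt3 (1.75 ± 0.254). Neighbours whose ranges overlapped with R848 were Csf1r and Csf2rb, Csf3r and Csf2ra, Kit and Csf2rb2, and Csf2rb2 and Il6st. In control they were Csf2ra and Csf3r, Il3ra and Kit, and Csf2rb2 and Il6ra. Il6st stood above Il3ra and Kit in both control samples and below Il3ra in both R848 samples.

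**Figure D1:**
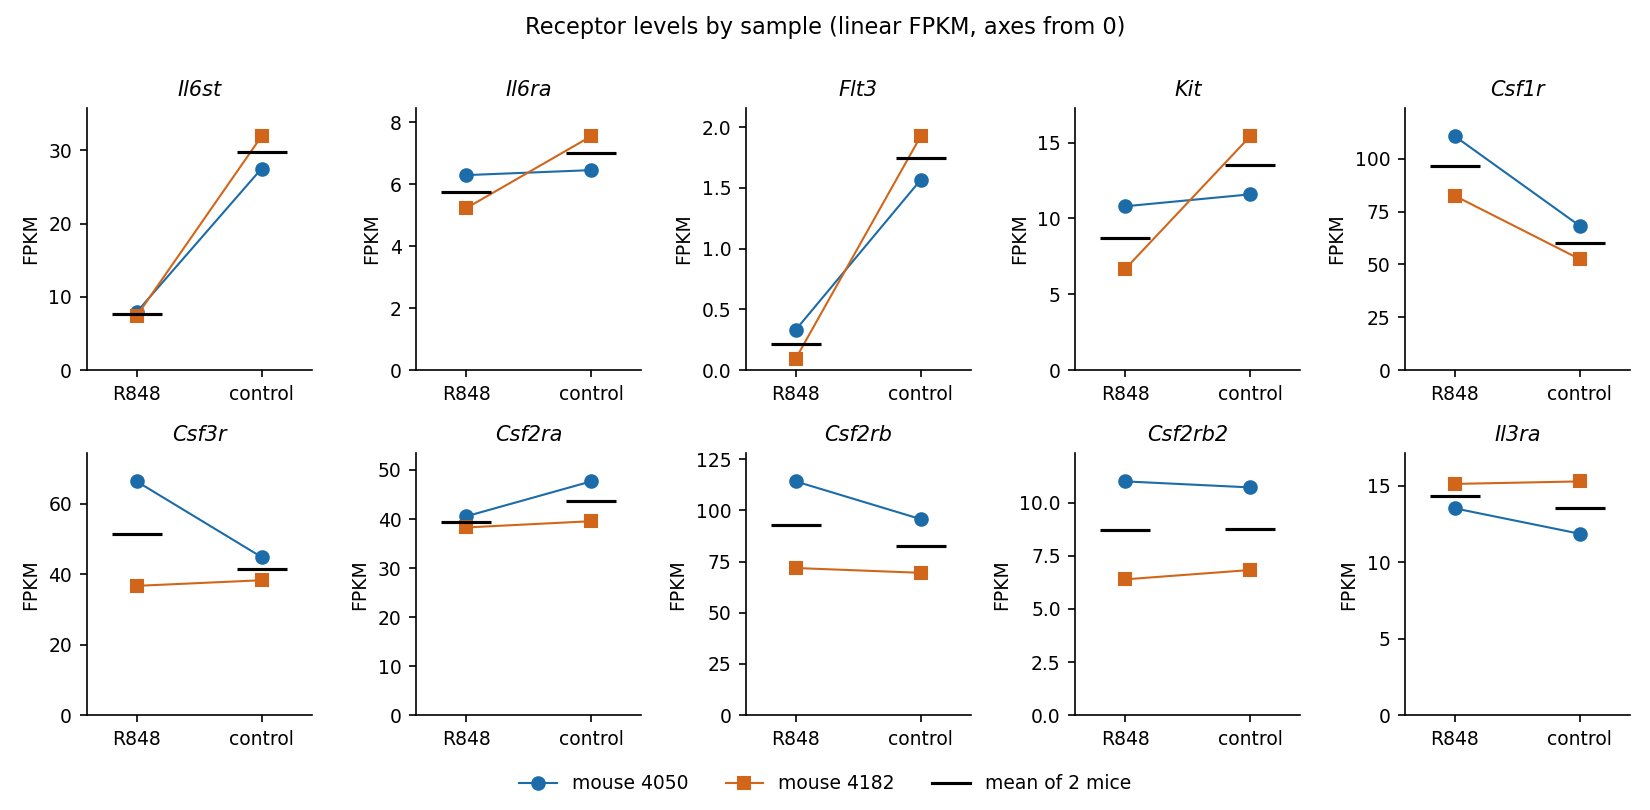
Level of each receptor gene in each sample, in linear FPKM with every axis starting at 0; circles are mouse 4050, squares mouse 4182, lines join the samples of a mouse and black bars are group means (n = 2). Il6st and Flt3 lie below control in both mice and Csf1r above it, while the Kit samples of mouse 4050 are nearly level and those of mouse 4182 are not.

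Il6st fell with R848, Csf1r was higher and passed the test with the mouse as a block, and the other tested receptors did not pass. Of 9 receptors with a mean of at least 1 FPKM, 1 fell and 0 rose at a limma adjusted p under 0.05, against a background of 0.381% called lower and 1.47% called higher among 12612 tested genes. Before adjustment limma gave a p under 0.05 to 1 higher receptor (Csf1r) and 1 lower (Il6st). R848 and control samples of a number come from the same mouse. When the fit included the mouse as a block, 1 receptor fell and 1 rose, against backgrounds of 1.9% and 3.4%. The same shares of all tested genes are the background for every gene list and marker list below. Differences here are R848 minus control on the log2(FPKM + 1) scale, on which weakly expressed genes appear to change less than they do. The median difference was -0.02 over the 9 receptors and -0.08 over all tested genes. The groups did not overlap for 4 of the 9, with R848 above control for 1 and below for 3, against 13.5% and 28.8% of all tested genes. In 3 of the 9 (Csf2rb2, Csf3r and Il3ra) the 2 mice differed in sign.

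**Figure D2:**
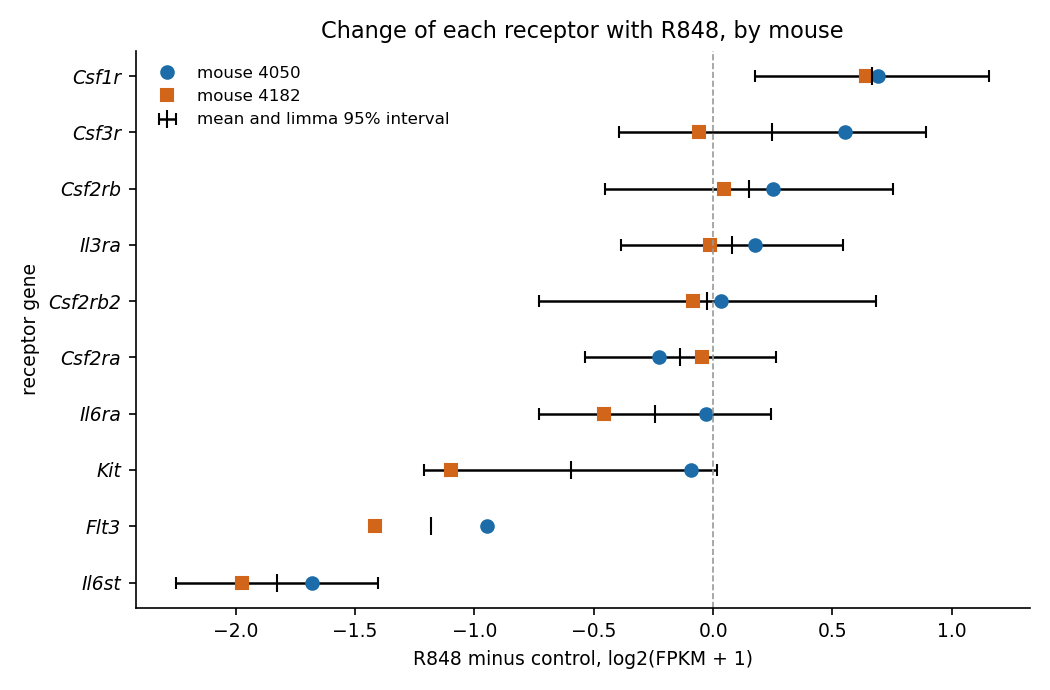
Difference of R848 minus control on the log2(FPKM + 1) scale for each receptor gene; circles and squares are the mice, ticks the mean of both, and bars limma's 95% interval (none for Flt3, which was below the level tested). The bars come from the fit without the mouse as a block. In that fit the interval lies below 0 for Il6st, above 0 for Csf1r and includes 0 for the other 7. With the block, Kit had an unadjusted limma p of 0.0326.

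Il6st, the shared signalling chain of the IL6 family, was the receptor that fell. The gene lies on GRCm38 chromosome 13, from 112464070 to 112510086 on the plus strand. It was at 7.90 and 7.39 FPKM in R848 samples of mice 4050 and 4182, against 27.5 and 31.9 FPKM in their controls. Both R848 samples were low, both controls were high and the groups were far apart. The R848 level was 28.7% of control in mouse 4050 and 23.1% in mouse 4182. The difference was -1.83 (SE 0.18, limma 95% interval -2.25 to -1.40, limma adjusted p = 0.00446, lower in 2 of 2 mice), the 27th lowest of 12612 genes. With the mouse as a block, limma adjusted p was 7.6e-05, and it was 0.0271 after quantile normalization and 0.0208 after median log ratio scaling without the block. The call was lost when the R848 sample of mouse 4182 was left out (difference -1.78, limma adjusted p = 0.0551) and with no filter on low values (limma adjusted p = 0.240). In these bulk samples, fewer cells of a type and less RNA per cell cannot be told apart.

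Il6ra, the IL6-binding partner of gp130, did not pass the test. It was at 6.29 and 5.23 FPKM with R848, against 6.45 and 7.55 FPKM in control. The samples of mouse 4050 were nearly level and those of mouse 4182 were further apart, with R848 below control. The difference was -0.24 (limma 95% interval -0.73 to 0.24, limma adjusted p = 0.737). Among the chains that pair with gp130, Lifr, the LIF receptor, was at 0.937 and 0.969 FPKM with R848 and 3.09 and 4.66 FPKM in control. That is a difference of -1.30 with limma adjusted p of 0.0592, or 0.00845 with the mouse as a block. Il11ra1, which binds IL11, was at 20.3 and 19.4 FPKM with R848 and 16.4 and 17.6 FPKM in control (0.21, limma adjusted p = 0.714). Osmr and Cntfr, the chains for oncostatin M and ciliary neurotrophic factor, were listed at 0 in all 4 samples.

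Transcripts of the ligands of gp130 were present in the cells. Il6 itself was at 25.9 and 14.2 FPKM with R848 and 38.0 and 35.6 FPKM in control, a difference of -0.90 (limma adjusted p = 0.221, and 0.0187 with the mouse as a block). Osm, oncostatin M, was at 34.6 and 24.4 FPKM with R848 and 45.9 and 73.8 FPKM in control, a difference of -0.98 (limma adjusted p = 0.173, and 0.0259 with the block). Both ligands thus fell in the fit with the block. The groups did not overlap for either, which also held, with R848 lower, for 28.8% of all tested genes. With the block, the Osm call ended after quantile normalization and median log ratio scaling (limma adjusted p = 0.0827 and 0.0808) and the Il6 call held (0.0464 and 0.0455). Without the block, Osm and Lifr passed when the control of mouse 4050 was left out (limma adjusted p = 0.0174 and 0.0155). Lif was at 2.45 and 2.98 FPKM with R848 and 2.37 and 4.39 FPKM in control (limma adjusted p = 0.854). Stat3, the main STAT protein of gp130, was at 83.5 and 74.4 FPKM with R848 and 69.6 and 74.8 FPKM in control (0.12, limma adjusted p = 0.830). Socs3, its feedback inhibitor, was at 75.2 and 86.8 FPKM with R848 and 47.5 and 102 FPKM in control, with opposite signs in the mice (limma adjusted p = 0.877).

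**Figure D3:**
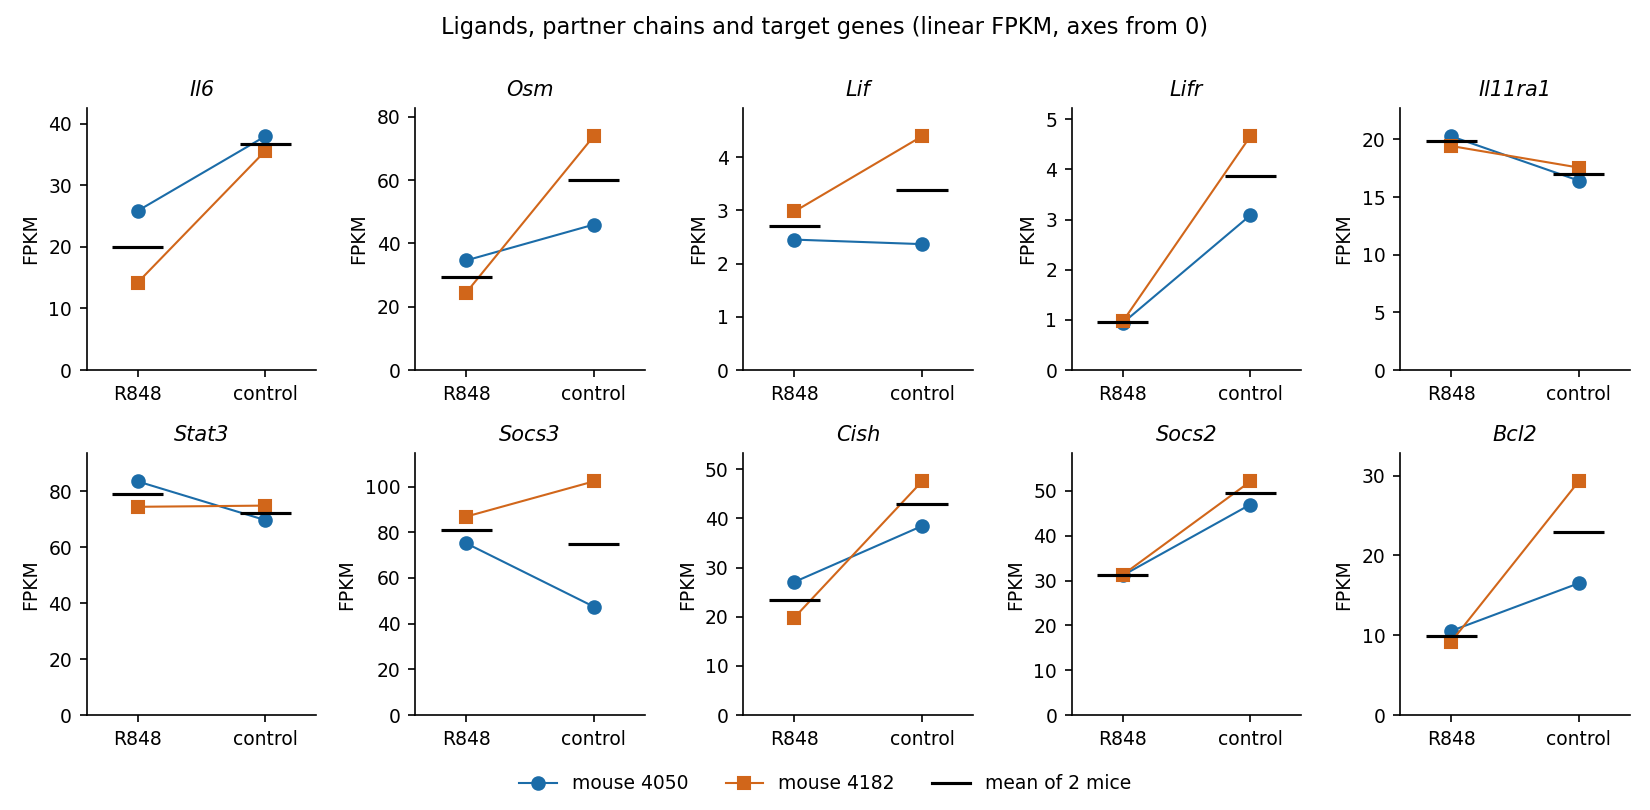
Level in linear FPKM, axes from 0, of ligands (Il6, Osm, Lif), partner chains (Lifr, Il11ra1), a relay (Stat3), feedback genes (Socs3, Cish, Socs2) and Bcl2; circles are mouse 4050, squares mouse 4182 and black bars group means (n = 2). R848 lies below control in both mice for Il6, Osm, Lifr, Cish, Socs2 and Bcl2, and the mice differ in sign for Lif, Stat3 and Socs3.

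Flt3, the kinase that carries the duplication in these mice, was low in all samples and lowest with R848. The gene lies on chromosome 5, from 147330741 to 147400489 on the minus strand. It was at 0.331 and 0.0942 FPKM in R848 samples of mice 4050 and 4182, against 1.57 and 1.92 FPKM in their controls. The R848 level was 21.1% of control in mouse 4050 and 4.89% in mouse 4182, with no overlap. Its mean over the 4 samples, 0.979 FPKM, was just under the 1 FPKM needed for the test, so Flt3 has no call in the fit used for the other receptors. With a minimum mean of 0.5 FPKM, the difference of -1.18 had a limma adjusted p of 0.072, and 0.0231 with the mouse as a block. Flt3 reached that minimum only through its control samples. Without the block 1 of 10 receptors fell and 0 rose at that minimum, against 0.269% and 1.13% of 14108 genes. With the block 2 of 10 fell and 1 rose, against 1.3% and 2.82% of those genes. With no filter the limma adjusted p of Flt3 was 0.459, and 0.691 with the block. A gene value does not separate normal from duplicated Flt3. Flt3l, its ligand, was at 11.2 and 9.79 FPKM with R848 and 9.39 and 10.2 FPKM in control (0.09, limma adjusted p = 0.908).

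Kit, the receptor for the SCF in the medium, was lower with R848 by amounts that differed between the mice, and it did not pass. It was at 10.8 and 6.67 FPKM in R848 samples of mice 4050 and 4182, against 11.6 and 15.4 FPKM in their controls. The pair of mouse 4050 was nearly level, and in mouse 4182 the R848 sample was at 43.3% of its control. The difference was -0.60 (limma 95% interval -1.21 to 0.02, limma adjusted p = 0.453, and 0.254 in the blocked fit), and it was -0.28 without the R848 sample of mouse 4182. Kitl, which encodes SCF, was below 1 FPKM in all 4 samples. Kit is also high in mast cells, whose markers were listed together with those of basophils. Of these 9 markers 8 were tested. By limma 0 rose or fell (3 higher at an unadjusted p under 0.05), and 2 rose with the block. Their summed level was 2894 and 1718 FPKM with R848 and 1910 and 1825 FPKM in control. Among 7 progenitor markers 0 passed by limma (before adjustment, 2 higher and 2 lower had p under 0.05), and with the block 2 rose (Ly6a and Procr) and 2 fell (Cd34 and Sox4). Cd34, a surface antigen of progenitors, was at 12.1 and 17.4 FPKM with R848 and 26.6 and 39.9 FPKM in control. The part of these cells in the Kit values was not tested.

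Csf1r, the receptor for CSF1 and IL34 on monocytes and macrophages, was higher with R848 in both mice, by nearly the same factor. It was at 111 and 82.5 FPKM in R848 samples of mice 4050 and 4182, against 68.3 and 52.5 FPKM in their controls. Each mouse kept its rank, and the lower R848 sample lay above the higher control, as in 13.5% of all tested genes. The R848 level was 1.62 times control in mouse 4050 and 1.57 times in mouse 4182. The difference was 0.67 (SE 0.21, limma 95% interval 0.18 to 1.16), which missed the threshold without the block (limma adjusted p = 0.241) and passed with it (0.0215). The blocked call held after quantile normalization (limma adjusted p = 0.0464) and after median log ratio scaling (0.0259). Its ligand Csf1 was at 6.52 and 4.68 FPKM with R848 and 8.99 and 2.98 FPKM in control, with opposite signs in the mice, and Il34 was below 1 FPKM throughout. Of 8 macrophage markers 3 rose (Adgre1, C1qb and C1qc) and 1 fell (Mrc1) by limma, and with the block 5 rose and 1 fell. The shares among all tested genes were 1.47% and 0.381%, and 3.4% and 1.9% with the block. Their summed level was 599 and 700 FPKM with R848 and 363 and 284 FPKM in control, and none was at 0. Their part in the Csf1r result was not tested.

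The receptors for G-CSF, GM-CSF and IL3 did not pass in any of the fits run. Csf3r, the G-CSF receptor of neutrophils and their precursors, was at 66.4 and 36.7 FPKM with R848 and 44.9 and 38.3 FPKM in control. The R848 sample of mouse 4050 stood high and the other 3 samples lay close together. The difference was 0.25 (limma 95% interval -0.40 to 0.89, limma adjusted p = 0.801), and it was -0.17 without that sample. The 8 neutrophil markers had 0 calls by limma in both fits (1 lower at an unadjusted p under 0.05), and their sum was likewise highest in that sample, at 87036 FPKM, with 47592 in the other R848 sample and 77457 and 59931 FPKM in control. Csf2ra, the GM-CSF-binding alpha chain, was at 40.6 and 38.3 FPKM with R848 and 47.7 and 39.6 FPKM in control (-0.14, limma 95% interval -0.54 to 0.26). Il3ra, the IL3-binding alpha chain, was at 13.5 and 15.1 FPKM with R848 and 11.9 and 15.3 FPKM in control (0.08, interval -0.38 to 0.55). The groups overlapped for both.

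The beta chains also did not pass, and their samples differed by mouse in both groups. Csf2rb, shared by the receptors for IL3, GM-CSF and IL5, was at 114 and 71.9 FPKM with R848 and 95.8 and 69.5 FPKM in control. Csf2rb2, a chain found in mice that serves IL3, was at 10.997 and 6.39 FPKM with R848 and 10.7 and 6.83 FPKM in control. Both genes were higher in mouse 4050 than in mouse 4182 in each group. Their differences were 0.15 (limma 95% interval -0.45 to 0.75) and -0.02 (interval -0.73 to 0.68) in the fit without the block. The SEs were 0.257 and 0.301 in that fit, and 0.153 and 0.211 with the mouse as a block. The blocked limma adjusted p-values were 0.730 and 0.979. The genes neighbour each other on chromosome 15, with Csf2rb2 from 78282507 to 78305721 and Csf2rb from 78325752 to 78353847. In GENCODE M21 transcripts, 28.6% of the distinct 31-base words of Csf2rb2 also occur in another receptor of the set, chiefly Csf2rb, and 18.9% of those of Csf2rb do so, chiefly in Csf2rb2. How reads were divided between these genes is therefore uncertain. Summed, they gave 125 and 78.3 FPKM with R848 and 106 and 76.4 FPKM in control, a difference of 0.13 (interval -0.48 to 0.75, limma adjusted p = 0.904).

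Of the other ligands, Csf2 (GM-CSF) was at 0.726 and 1.26 FPKM with R848 and 0.604 and 0.952 FPKM in control, and Csf3 (G-CSF) at 1.27 and 0.323 FPKM with R848 and 0 and 0.0304 FPKM in control. Both had means under 1 FPKM and were not tested. The remaining ligands (Il3, Il5, Il11, Clcf1 and Ctf1) were below 1 FPKM in all 4 samples. In all, 5 of 14 ligands were tested, with 0 called by limma. In the blocked fit 2 fell (Il6 and Osm), which were also the 2 lower at an unadjusted p below 0.05. The median difference over the 5 tested ligands was -0.20.

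Of the relays below the receptors, Stat5a and Stat5b, the STAT proteins downstream of FLT3 with the duplication, did not pass. Stat5a was at 21.8 and 19.5 FPKM with R848 and 22.1 and 23.1 FPKM in control (-0.12, limma adjusted p = 0.846). Stat5b was at 25.4 and 25.6 FPKM with R848 and 28.9 and 38.8 FPKM in control (-0.38, limma adjusted p = 0.524).

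Among brakes on receptor signals, Socs1 rose. Of 17 tested, 1 rose and 0 fell, while the blocked fit had 2 that rose and 2 that fell, with a median of -0.04. The background was 1.47% higher and 0.381% lower, and 3.4% and 1.9% with the block. Socs1, an inhibitor of JAK kinases, rose to 52.4 and 64.4 FPKM with R848, against 30.0 and 22.4 FPKM in control (1.13, limma adjusted p = 0.0419). The Socs1 call ended after both rescalings without the block (limma adjusted p = 0.128 and 0.102) and without 3 of the 4 samples in turn, all but the control of mouse 4050. It also ended without the block with a mean of at least 0.5 FPKM (limma adjusted p = 0.0574), with no trend in the prior (0.0761) and with no filter (0.537). With the block, Dusp6, a phosphatase of ERK kinases, was higher (0.72, limma adjusted p = 0.0254, and 0.0592 after quantile normalization). Cish and Socs2, feedback genes that STAT5 induces, were lower in the same fit. Cish was at 27.1 and 19.9 FPKM with R848 and 38.5 and 47.5 FPKM in control (-0.85, limma adjusted p = 0.0228 with the block and 0.122 without). Socs2 was at 31.2 and 31.3 FPKM with R848 and 47.0 and 52.1 FPKM in control (-0.65, limma adjusted p = 0.0389 with the block and 0.125 without). Neither Cish nor Socs2 passed with the block after rescaling (limma adjusted p from 0.0557 to 0.0768).

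Of 12 STAT5 and growth targets 0 were called by limma and 1 fell in the blocked fit, with 2 lower at an unadjusted p below 0.05. Among all tested genes the blocked fit called 3.4% higher and 1.9% lower, and the fit without it 1.47% and 0.381%. Bcl2, which blocks apoptosis, was at 10.5 and 9.18 FPKM with R848 and 16.5 and 29.3 FPKM in control (-1.09, limma adjusted p = 0.131, and 0.0156 with the block, or 0.0523 with the block after quantile normalization). Pim3, a kinase, was at -0.57 (limma adjusted p = 0.379). Of 7 receptor shedding genes 0 were called, 1 was higher at an unadjusted p under 0.05 by limma and 1 rose with the block. Psen2, a subunit of gamma-secretase, was that gene (0.82, limma adjusted p = 0.125, and 0.0258 with the block). With the block its call ended after both rescalings (limma adjusted p = 0.0738 and 0.0521). Without the block, Bcl2 and Psen2 passed when the control of mouse 4050 was left out (limma adjusted p = 0.00772 and 0.0458). Timp3, an inhibitor of sheddases, was at -1.10 (limma adjusted p = 0.477). Of 4 tested related receptor chains 0 were called by limma and Lifr fell in the blocked fit, with 2 lower at an unadjusted p below 0.05. Il7r, the IL7 receptor alpha chain, was at -0.76 (limma adjusted p = 0.373).

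Of 17 myeloid transcription factors 0 rose and 1 fell, and with the block 0 rose and 2 fell, with a median of -0.13. Among all tested genes 1.47% rose and 0.381% fell, and 3.4% and 1.9% with the block. Klf4, a factor of monocyte differentiation, fell to 1.03 and 0.886 FPKM with R848, against 5.90 and 6.51 FPKM in control (-1.88, limma adjusted p = 0.00885). The Klf4 call did not survive leaving out the R848 sample of mouse 4050 or that of mouse 4182 (limma adjusted p = 0.0548 and 0.0963). Meis1, a homeobox factor of leukaemic progenitors that is known to raise Flt3 expression, was at 6.28 and 4.32 FPKM with R848 and 10.8 and 12.7 FPKM in control (-1.03, limma adjusted p = 0.0889, and 0.0198 with the block). Spi1, which encodes PU.1, did not pass.

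**Figure D4:**
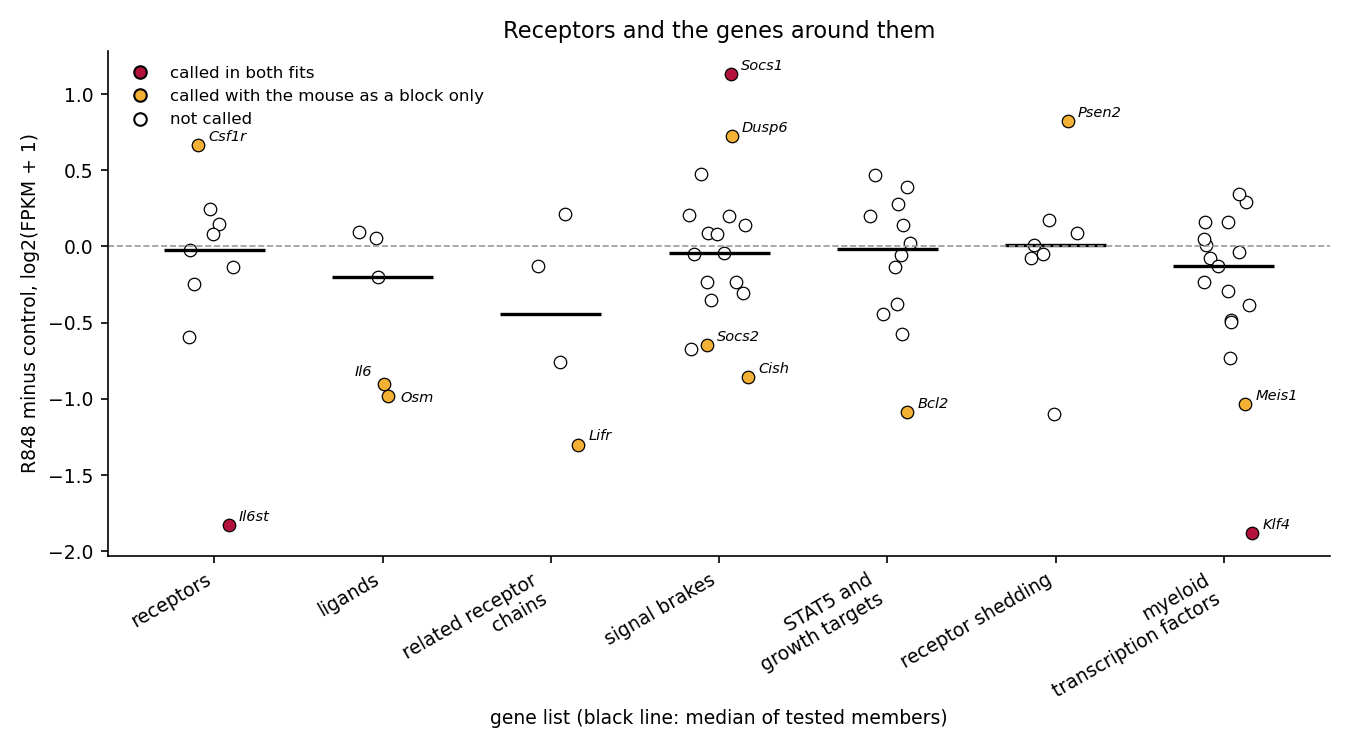
Difference of R848 minus control on the log2(FPKM + 1) scale for each tested member of the receptor set and of 6 lists of genes around it (kinases and relays are not drawn); red points passed limma at an adjusted p under 0.05 with and without the mouse as a block, amber points with the block only, and black lines are medians. Il6st and Klf4 lie lowest and Socs1 highest among the points.

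The Il6st, Csf1r, Flt3 and Kit results differed in how much they depended on the fit. Over 19 other fits Il6st was called in 16 and Csf1r in 6, with each of those 6 having the mouse as a block. Flt3 was tested in 8 and called in 2, both with the block and a looser filter on low values. It met those filters only through its control samples, so these calls are not independent support for a fall. Kit was called in 0 of 19 by limma, with unadjusted p-values of 0.0555 without the block and 0.0326 with it. The direction was the same in all of these fits for each of the 4 genes.

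**Figure D5:**
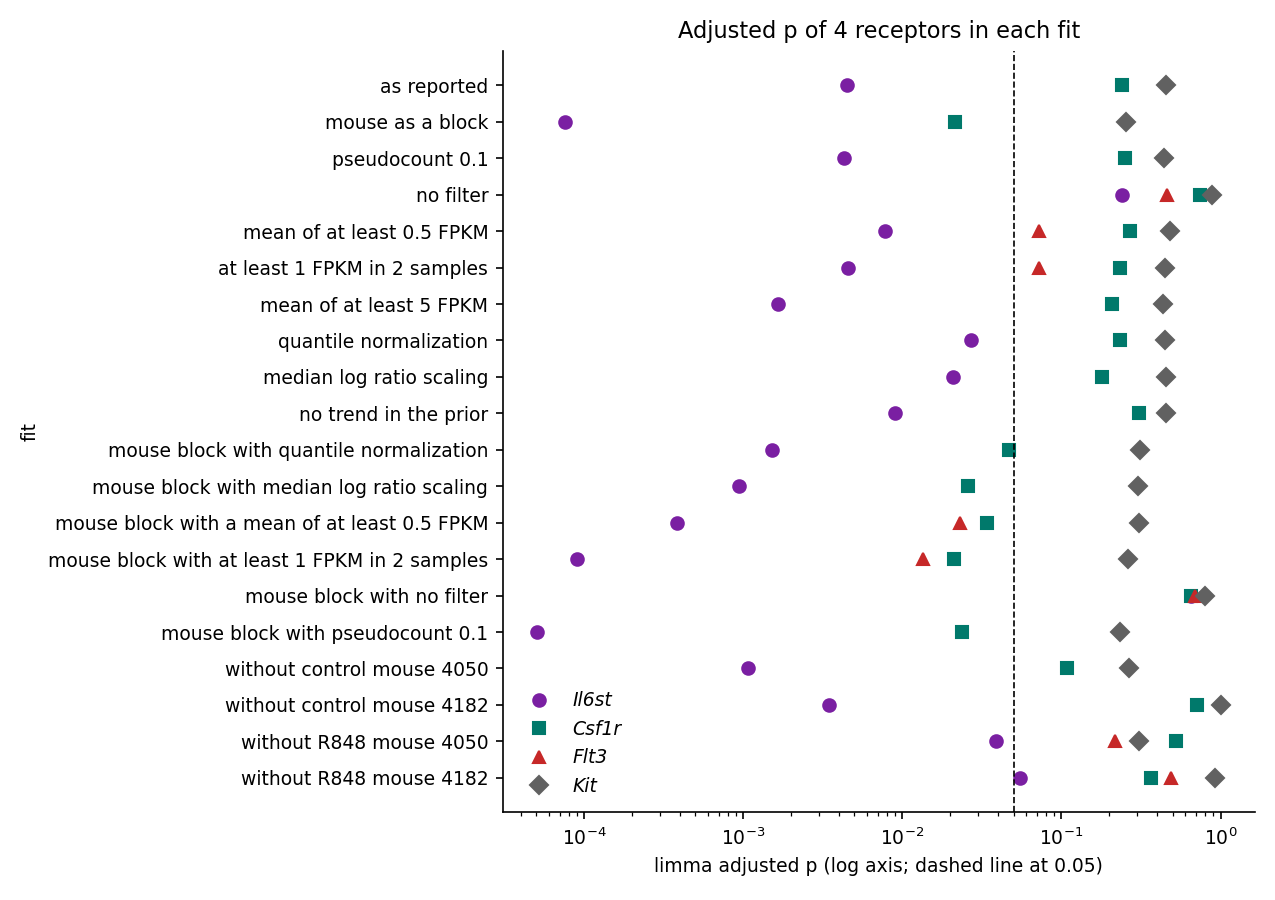
Limma adjusted p of Il6st, Csf1r, Flt3 and Kit (log axis) in the fit reported and in each other fit, down the page; the dashed line is the threshold of 0.05, and Flt3 is shown where the filter let it be tested. Il6st lies left of the line in all but 3 of the other fits (no filter, no filter with the block, and without the R848 sample of mouse 4182), and Csf1r crosses it with the mouse as a block except with no filter.

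The samples carried myeloid transcripts at high levels, with markers of other cells beside them. The 9 myeloid blast markers summed to 14363 and 13212 FPKM with R848 and 12572 and 11688 FPKM in control, with 0 called by limma in both fits (2 higher at an unadjusted p under 0.05), though Ptprc, the pan-leukocyte antigen CD45, was at only 1.27 to 2.69 FPKM. Markers of B cells summed to 41.7 and 43.3 FPKM with R848 and 14.7 and 16.3 FPKM in control. Those of plasma cells summed to 1285 and 1129 FPKM, against 536 and 686 FPKM. Most of the plasma cell sum in control was Xbp1, at 515 and 667 FPKM, with 599 and 543 FPKM with R848. Igkc was at 601 and 507 FPKM with R848 and 4.90 and 2.74 FPKM in control. Igj was at 42.2 and 34.1 FPKM, against 0.405 and 0.464 FPKM. Of 5 B cell and 6 plasma cell markers tested, 3 each were called higher without the block. Without the block 1.47% of all tested genes were called higher, and 3.4% with it. T cell markers summed to 14.1 and 17.6 FPKM with R848 and 8.26 and 7.66 FPKM in control, and 2 of 5 tested rose in both fits (Cd3g and Trac). Of 8 dendritic cell markers, cells in which Flt3 is also expressed, 5 were under 1 FPKM in all samples, 3 were tested and 0 called by limma (before adjustment, 1 higher and 1 lower had p under 0.05). With the block Bst2 rose and Itgax fell. The 8 markers summed to 115 and 217 FPKM with R848 and 69.4 and 71.9 FPKM in control. Most of that was Bst2, at 111 and 213 FPKM with R848 and 50.9 and 65.7 FPKM in control. Itgax was at 1.31 and 0.584 FPKM with R848 and 15.3 and 3.02 FPKM in control. Of 6 stromal and endothelial markers 5 were under 1 FPKM throughout, as were 4 of 5 NK cell and 3 of 4 erythroid markers measured. Of 4 megakaryocyte markers Pf4 rose (2.02, limma adjusted p = 0.0215). Itga2b (-0.12), Gp9 (-0.40) and Gp1ba (-0.06) did not pass. The part of these cells in the receptor results was not tested.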

How the data were processed

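For 4 samples, values on a log2 scale were deposited, which the authors name log2 FPKM. Kallisto and mm10 are named per the submitters' processing notes; versions and annotation are not given in the sources used here. Undoing log2(value + 1) gave sums of 950530 to 962001 per sample, as TPM would. Without counts the depth behind a value is unknown, and no intervals for counting error can be given. The labels mention ribosome depletion as well as a stranded mRNA kit.

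After dropping 27 rows with date names and 91 repeated symbols (the highest mean was kept), 28074 symbols remained. Genes averaging 1 FPKM or more over the 4 samples entered limma 3.58.1 (R 4.3.3) on log2(FPKM + 1), two-sided, with a trended prior and Benjamini-Hochberg adjustment over 12612 genes. As each group has 2 samples, p-values borrow their spread from all genes (prior 5.27 and residual 2 degrees of freedom). An exact permutation test of 2 against 2 cannot go below p = 0.333. Per the labels a number names 1 animal whose cells went into both groups, so samples are paired by number; across genes the mouse differences in the groups correlated at 0.289. The fit had no block, and the blocked value (1 residual degree of freedom) is given where it changes a call.

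The receptors, 7 gene lists and 13 marker lists were chosen with earlier results of these data known. Of 200 listed genes 3 matched by an older symbol (Sfpi1 for Spi1, Emr1 for Adgre1, Igj for Jchain) and 1, Hbb-bs, did not match. Named by rule were all receptors, all ligands, and from each list up to 2 called genes a direction with the smallest adjusted p, or the 2 smallest p where none was called. Cish, Socs2, Socs3, Dusp6, Meis1, Stat3, Stat5a, Stat5b, Il11ra1, Osmr, Cntfr, Spi1 and the marker genes were named after their values were seen. Some genes of the kinase and relay list are not reported here, though counts over the 7 lists include them. Coordinates are from GENCODE M21 (GRCm38, the build also called mm10). The fit without the block was tested on simulated data, where it recovered most of the changed genes and made a larger share of false calls than the threshold allows. Alternatives were the block, another pseudocount (0.1), other filters, 2 rescalings, an untrended prior, leaving out each sample and, chosen after seeing the data, the block with other choices. Figures were drawn with matplotlib 3.10.9.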

Additional observations from a re-analysis of the deposited data

How the results depend on the processing

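Without the block, 185 genes were higher and 48 lower. These counts were 656 and 798 at an unadjusted p under 0.05, 76 and 12 after quantile normalization, 93 and 16 after median log ratio scaling, and 1 and 22 with no filter (2055 genes by limma before adjustment). Pairing by mouse (the block) gave 429 and 240. The block with another choice, added after seeing the data, gave 354 and 136 with quantile normalization, 409 and 151 with median log ratio scaling, 398 and 184 with a mean of at least 0.5 FPKM, 437 and 242 with at least 1 FPKM in 2 samples, 430 and 248 with pseudocount 0.1, and by limma 0 and 0 with no filter (1977 at an unadjusted p under 0.05). Leaving out 1 sample gave 46 to 292 higher and 11 to 159 lower. Higher receptors were 1 rather than 0 at an unadjusted p under 0.05 and with the block, alone or combined, except with no filter. Lower receptors were 0 rather than 1 with no filter, with or without the block, 0 to 1 on leaving out a sample, and 2 with the block and either looser filter. Over the 7 lists, 3 genes were higher and 1 lower. The counts were 5 and 12 at an unadjusted p under 0.05, 5 and 8 with the block (also with pseudocount 0.1 or at least 1 FPKM in 2 samples), 5 and 6 with the block and a mean of at least 0.5 FPKM, and 0 and 0 with no filter in both fits. Higher genes were 1 after either rescaling. Lower genes were 0 with a mean of at least 5 FPKM, which leaves Klf4 out, 2 with no trend in the prior, and 4 and 5 with the block after quantile normalization and median log ratio scaling. Leaving out 1 sample gave 1 to 4 higher and 0 to 5 lower. Csf2rb2 turned upward after quantile normalization (0.054) and median log ratio scaling (0.040), with or without the block. The sum of Csf2rb and Csf2rb2, which is mostly Csf2rb, was at 0.13. On leaving out 1 sample Csf2rb2 ran from -0.37 to 0.33, Csf2rb from -0.18 to 0.48, Csf3r from -0.17 to 0.67, Il3ra from -0.090 to 0.25, Socs3 from -0.34 to 0.75, Csf1 from -0.61 to 0.72 and Lif from -0.54 to 0.14. None of these 7 genes passed in any fit. Apart from the calls named here and in the text, the block changed no other receptor's call. The causes of these shifts were not tested. With a sample left out, the lone sample of its group is assumed to vary like the others.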

Other observations

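The make-up of the receptor transcripts shifted between the groups in both mice. The 10 receptors summed to 382 and 270 FPKM in R848 samples of mice 4050 and 4182, against 326 and 279 FPKM in their controls, so the sum was higher with R848 in mouse 4050 and lower in mouse 4182. Csf1r made up 29.0% and 30.5% of that sum with R848 and 20.9% and 18.8% in control. For the IL6 receptor, the level of Il6st, the signalling chain, was 1.26 and 1.41 times that of Il6ra, the binding chain, with R848 and 4.26 and 4.23 times in control. Csf2rb2 was 8.78% and 8.16% of the summed beta chains with R848 and 10.1% and 8.94% in control. These ratios were not tested. They compare transcripts per length and say nothing of protein on the cell surface.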
